A study of Mus musculus with 9 samples.

Results

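The miRNAs of the hairpins mir-142, mir-223, mir-150 and mir-342, which are known as miRNAs of leukocytes, were followed in small RNA sequencing of extracellular vesicles (EVs) from bronchoalveolar lavage fluid (BALF). All rows of these hairpins in the table were taken, on both arms and with their isomiRs, which gave 28 of 1308 entries and 4 of 299 hairpins. Of the 28 entries, 7 were mature miRNAs and 21 were isomiRs, which start at another base than the mature miRNA. The samples were 9 pools of BALF from female C57BL/6J mice of 8 to 10 weeks, 3 pools for each exposure. Mice breathed filtered air (FA), 1 ppm ozone (O3) or 2 ppm O3 for 3 h, and lavage was done 21 h later. Each FA pool held BALF from 4 mice and each O3 pool from 3 mice, so pool size and O3 cannot be told apart. The study's record of chamber conditions lists separate runs for FA but a single run for each O3 concentration, and it does not tie pools to runs. As listed, the 3 pools of an O3 concentration share a run, so run and concentration cannot be told apart. The pools also give no spread between single mice, so p-values measure the spread between these pools only.

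A miRNA hairpin is cut into a 5p and a 3p strand, either of which can be loaded into the silencing complex, where bases 2 to 8 (the seed) guide it to its target mRNAs. mir-142 is expressed throughout the blood lineages and mir-223 most in neutrophils and other myeloid cells. mir-150 is abundant in mature lymphocytes, and mir-342 is expressed in several lymphoid and myeloid cells. O3 is known to draw neutrophils into the airspaces of the mouse, and EVs from these cells can reach the lavage fluid beside those of the epithelium. In EV RNA of mixed origin, fewer EVs from a cell type and less of a miRNA in each EV cannot be told apart.

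The mature sequences are shown first, since the shift of a start by a base changes the seed. They are taken from RefSeq (table for GRCm38.p6), written 5′ to 3′ with the seed in capitals, and 6 of the 7 mature entries had a sequence there. For an isomiR, a minus was read as a start that many bases upstream of the annotated 5′ end and a plus as a start downstream. This sign convention is not given in the sources used here, and isomiRs are printed up to the annotated 3′ end, since their own 3′ ends were not listed. The entries that carried most of each arm, or that differed between exposures, were the following.
miR-142-5p: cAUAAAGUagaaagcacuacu
miR-142-5p (-2): cCCAUAAAguagaaagcacuacu
miR-142-3p: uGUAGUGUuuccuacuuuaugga
miR-223-3p: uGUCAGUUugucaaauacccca
miR-342-3p: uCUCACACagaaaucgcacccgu
miR-342-3p (+2): uCACACAGaaaucgcacccgu
miR-342-5p: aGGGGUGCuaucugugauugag

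The 6 mature miRNAs with a sequence had 6 different seeds, and none of these was found in another of the 1679 mouse mature sequences compared. The start of miR-142-5p (-2) moves its seed to CCAUAAA, which among those sequences only mmu-miR-142b also had. The seed of miR-342-3p (+2) was that of mmu-miR-672-3p. The whole mir-142 hairpin shows where the extra bases of miR-142-5p (-2) come from, with the annotated 5p and 3p strands in capitals.
mir-142 hairpin: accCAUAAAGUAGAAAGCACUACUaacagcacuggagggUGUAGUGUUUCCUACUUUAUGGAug

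All 4 hairpins are on the plus strand of mm9, the build of the files. mir-142 lies at chr11:87570366-87570429 in an intron of the non-coding transcript A430104N18Rik. mir-223 lies at chrX:93438156-93438265 in an exon of F630028O10Rik, a gene on the same strand, in a transcript whose annotated type is antisense. mir-342 lies at chr12:109896830-109896928 in an intron of Evl, a protein-coding gene of the cytoskeleton. mir-150 lies at chr7:52377127-52377191, outside any other gene of the annotation. The 3 hairpins with a RefSeq sequence were identical in mm9.

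Values were in RPMMM, miRNA reads scaled to a total of 1000000 in each pool. The estimated miRNA reads were 535494 to 773268 in the FA pools and 555124 to 861023 in the 1 ppm pools, but 281321 to 300775 in the 2 ppm pools. The estimate took the lowest value above 0 in a pool to stand for about 10 reads. That is a level of 11.6 to 18.7 RPMMM in the FA and 1 ppm pools and 33.3 to 35.6 RPMMM in the 2 ppm pools. A 0 after 2 ppm O3 therefore hides a higher level than a 0 in FA. The read numbers and the bounds at 10 reads given below rest on this assumption. The hairpin mir-2137 and 4 hairpins of doubtful identity held 0.359% to 0.92% of the total in FA, 5.51% to 10.9% after 1 ppm and 41.6% to 47.2% after 2 ppm O3. Each pool is scaled to the same total, and the median log2 fold change of the 461 tested entries (mean above 50 RPMMM) was -0.08 after 1 ppm and -0.83 after 2 ppm O3 compared with FA, and -0.69 between 2 and 1 ppm O3. mir-2137 and the doubtful hairpins were picked with their rise after O3 known. Leaving them out of the total thus raises the other entries most after 2 ppm O3. The median after 2 ppm O3 compared with FA was then -0.07. With pools scaled by the median of ratios, which centres the entries by construction, it was -0.09. Changes of the tested leukocyte entries are given on more than one scale where the direction or the call differs. Summed levels and the lists of other miRNAs are given on the deposited scale only.

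The leukocyte miRNAs together held 0.165% to 0.352% of the total in a pool, and 3 entries carried most of their reads. miR-223-3p ranked 127 by mean level among the 1308 entries, miR-342-3p ranked 140 and miR-142-5p (-2) ranked 151. Of the 28 entries, 4 were above 0 in all 9 pools, namely these 3 and miR-342-3p (+2), whereas 15 were above 0 in only 1 or 2 pools. The sum of all 28 was 2319 to 3516 RPMMM in FA, 2688 to 3356 RPMMM after 1 ppm and 1654 to 2000 RPMMM after 2 ppm O3. The pools of FA and 1 ppm O3 overlapped, and those of 2 ppm O3 lay below both on this scale. The sum was not computed on the other scales. With median of ratios scaling, the means in FA and after 2 ppm O3 were 600 and 910 for miR-223-3p. They were 446 and 539 for miR-142-5p (-2), and 641 and 497 for miR-342-3p.

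Entries were tested with limma on log2(RPMMM + 1) in one model of the 9 pools, with p-values adjusted by the Benjamini-Hochberg method over all 461 tested entries, of which 7 were of these hairpins. An entry was called at an adjusted p below 0.05 and a change of at least 2-fold. After 1 ppm O3, 0 of the 7 were called, compared with 13.2% of all tested entries, and 1 had an unadjusted p below 0.05. After 2 ppm O3, 2 of the 7 were called, both lower, compared with 43.6% of all tested entries in either direction and 29.3% lower. Between 2 and 1 ppm O3, 1 of the 7 was called, lower, compared with 33.6% in either direction and 22.3% lower. The pools of 2 ppm O3 all lay below those of FA for 4 of the 7, a pattern shared by 48.2% of tested entries, and below those of 1 ppm O3 for 3 of the 7, compared with 37.5%. After 1 ppm O3, 0 of the 7 were free of overlap with FA in either direction, compared with 33.2%. The shares called lower were thus near those of all entries at this n, and the median log2 fold change of the 7 was -0.07, -0.40 and -0.67 in the 3 comparisons.

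**Figure D1:**
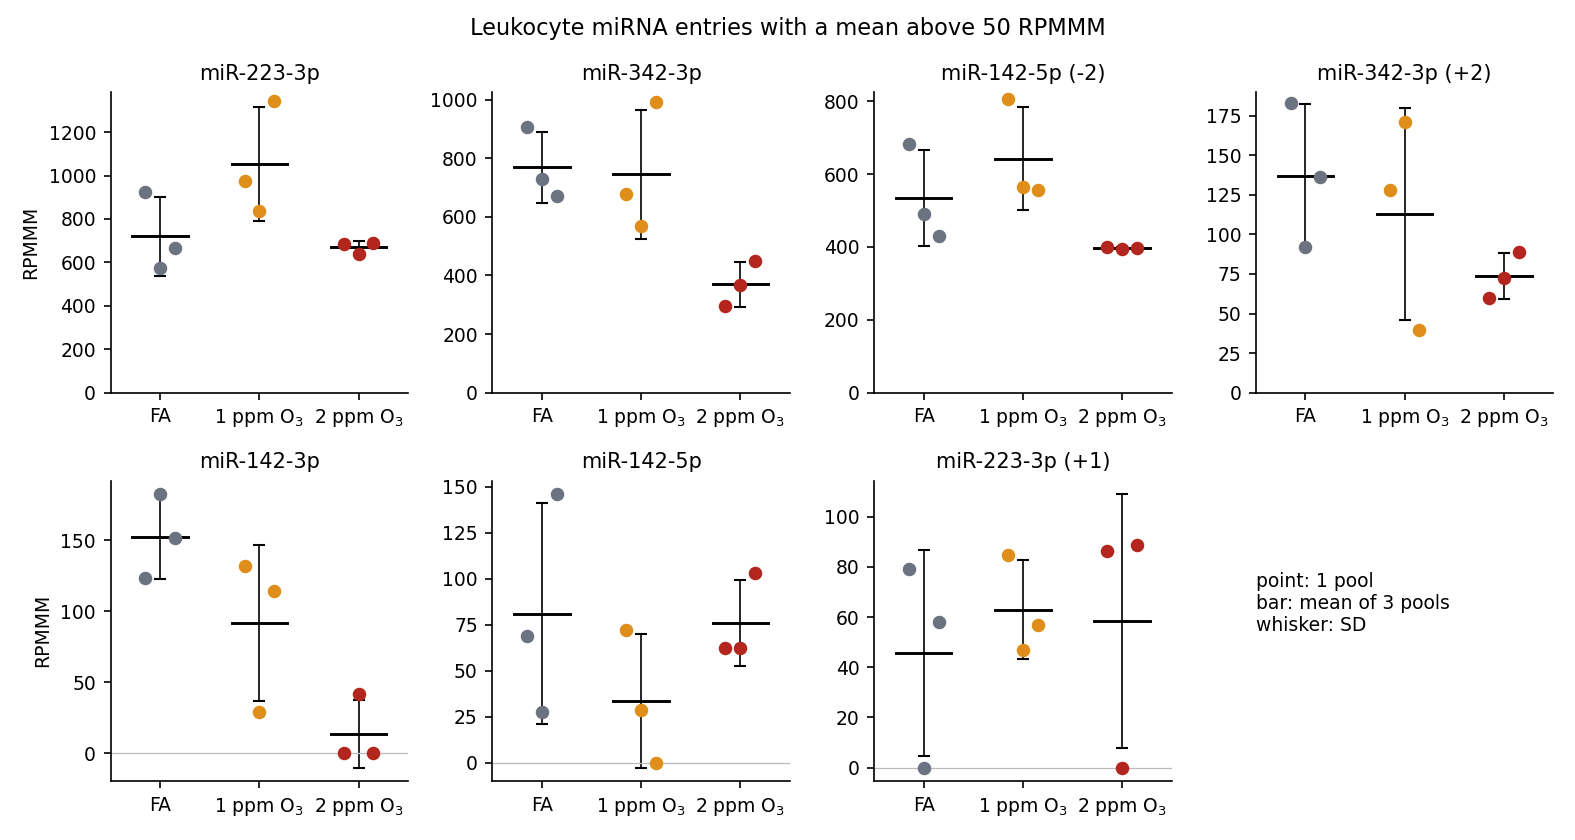
Level in RPMMM (vertical axis) of the 7 tested leukocyte miRNA entries, 1 panel each, in the 9 pools by exposure (points: pools, bars: mean, whiskers: SD of 3 pools). miR-342-3p and miR-142-3p lie lower in all pools of 2 ppm O3 than in FA, whereas miR-223-3p overlaps between FA and 2 ppm O3.

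miR-223-3p, which is best known for restraining neutrophil production and activity, was the most abundant of these miRNAs after O3. Its level was 923, 573 and 667 RPMMM in FA, 977, 838 and 1344 RPMMM after 1 ppm and 685, 639 and 689 RPMMM after 2 ppm O3. The highest FA pool lay within the range of the 1 ppm pools, and all 2 ppm pools lay below all 1 ppm pools and within the range of FA. The log2 fold change from FA was 0.55 ± 0.229 (SE, n = 3 pools) after 1 ppm (adjusted p = 0.165 from limma, 95% interval 0.03 to 1.06) and -0.08 ± 0.229 after 2 ppm O3 (adjusted p = 0.793). Between 2 and 1 ppm O3 it was -0.62 (adjusted p = 0.0508 from limma). None of the 3 comparisons passed the test.

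The direction after 2 ppm O3 depended on the scale. Relative to the median of all tested entries, miR-223-3p differed from FA by 0.63 on the log2 scale after 1 ppm and by 0.75 after 2 ppm O3. With median of ratios scaling its level was 762, 489 and 550 in FA, 846, 763 and 1181 after 1 ppm and 987, 892 and 851 after 2 ppm O3. On that scale the pools of both O3 concentrations lay above those of FA, although the highest FA pool and the lowest 1 ppm pool nearly met. The log2 fold change after 2 ppm O3 was then 0.62 (adjusted p = 0.0551 from limma). With mir-2137 and the 4 doubtful hairpins left out of the total it was 0.79 with an adjusted p of 0.0227 from limma, which was below the 2-fold threshold.

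miR-342-3p, the main product of a hairpin inside Evl, fell after 2 ppm O3 on the deposited scale. Its level was 905, 729 and 670 RPMMM in FA, 677, 567 and 991 RPMMM after 1 ppm and 296, 366 and 448 RPMMM after 2 ppm O3. Every 2 ppm pool lay below every pool of the other exposures, and FA and 1 ppm overlapped. The log2 fold change from FA was -1.06 ± 0.256 (SE, n = 3 pools) after 2 ppm (adjusted p = 0.00643 from limma, 95% interval -1.64 to -0.49) and -0.07 ± 0.256 after 1 ppm O3 (adjusted p = 0.920). Between 2 and 1 ppm O3 it was -0.99 (adjusted p = 0.0128 from limma), just short of 2-fold. That difference was called in 3 of 19 settings, without 1 ppm pool 1 (-1.04), 1 ppm pool 2 (-1.17) or 2 ppm pool 3 (-1.14). It was -0.76 without 1 ppm pool 3, -0.38 with median of ratios scaling (adjusted p = 0.253 from limma) and -0.24 without mir-2137 and the doubtful hairpins in the total (adjusted p = 0.490 from limma).

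After 2 ppm O3 compared with FA, miR-342-3p lay -0.24 on the log2 scale from the median of all tested entries. With median of ratios scaling the difference was -0.36 on the log2 scale (adjusted p = 0.250 from limma), with levels of 747, 623 and 553 in FA and 426, 511 and 553 after 2 ppm O3. Without mir-2137 and the doubtful hairpins in the total it was -0.20 (adjusted p = 0.545 from limma). On the deposited scale the log2 fold change was -0.94 without FA pool 1 and -0.91 without 2 ppm pool 1, both under 2-fold. The call compared with FA was made in 14 of 19 settings. The shorter isomiR miR-342-3p (+2) was 183, 91.8 and 136 RPMMM in FA, 128, 171 and 39.5 RPMMM after 1 ppm and 59.8, 72.6 and 88.8 RPMMM after 2 ppm O3. Its 2 ppm pools lay below those of FA, with a log2 fold change of -0.85 that did not pass the test (adjusted p = 0.244 from limma).

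**Figure D2:**
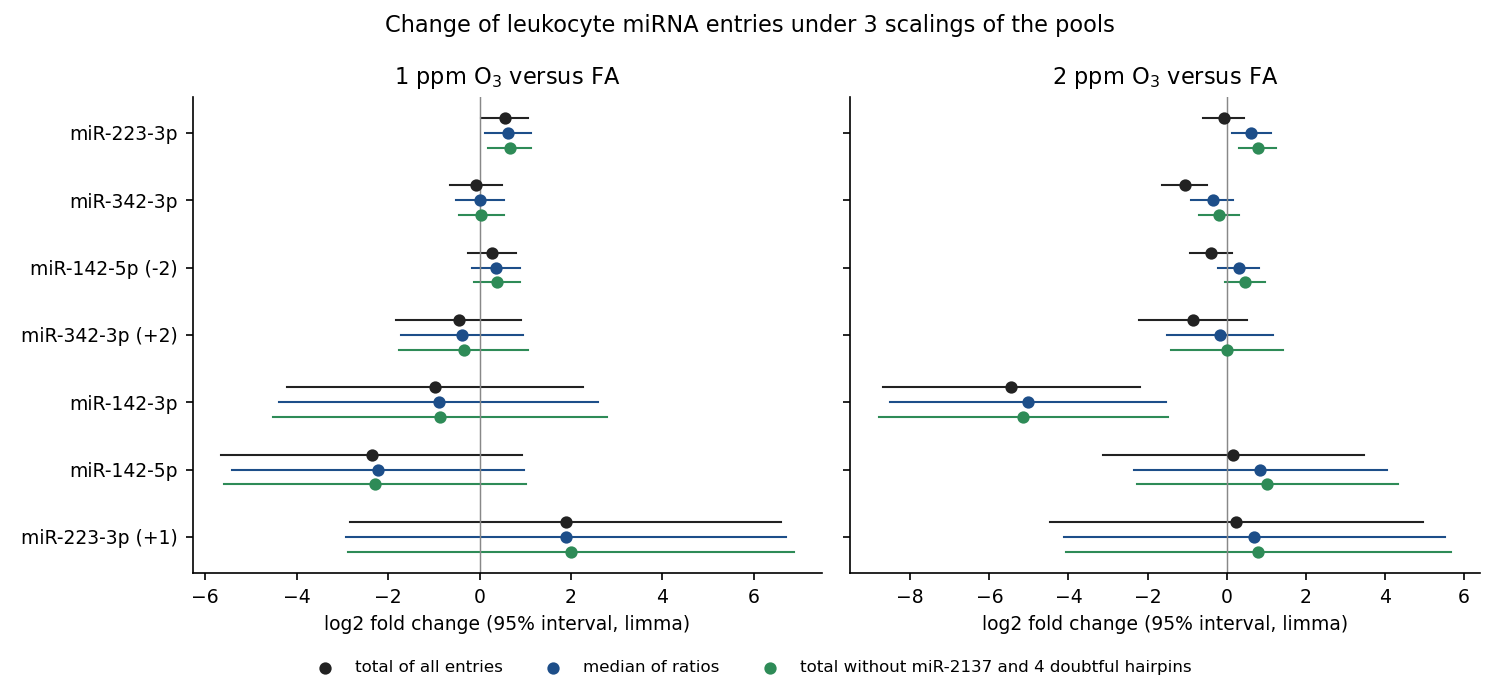
Log2 fold change from FA (horizontal axis) of the 7 tested leukocyte miRNA entries after 1 ppm and after 2 ppm O3 under 3 ways of scaling the pools, shown by colour, with 95% intervals from limma. After 2 ppm O3 miR-223-3p is -0.08 on the scale of the deposited total and 0.62 with the median of ratios, and miR-342-3p is -1.06 and -0.36.

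The ratio of miR-223-3p to miR-342-3p within a pool does not change with the scaling. It was 1.02, 0.785 and 0.994 in FA, 1.44, 1.48 and 1.36 after 1 ppm and 2.31, 1.75 and 1.54 after 2 ppm O3. The groups did not overlap, and it was higher at the higher O3 concentration in all 27 pairs formed from pools of unlike exposure. The mean log2 ratio was -0.11 ± 0.21 (SD, n = 3 pools) in FA, 0.51 ± 0.06 after 1 ppm and 0.88 ± 0.30 after 2 ppm O3. With all isomiRs of both 3p arms the ratio was 0.739 to 0.907 in FA, 1.13 to 1.42 after 1 ppm and 1.53 to 2.17 after 2 ppm O3. This ratio was chosen after the values were seen and is given as a description, with no test. Against miR-142-5p (-2), the ratio of miR-223-3p was 1.17 to 1.55 in FA, 1.21 to 2.41 after 1 ppm and 1.62 to 1.73 after 2 ppm O3, and that of miR-342-3p was 1.32 to 1.56, 0.842 to 1.78 and 0.742 to 1.13. The first lay higher and the second lower in every pool of 2 ppm O3 than in FA, with 1 ppm overlapping both.

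**Figure D3:**
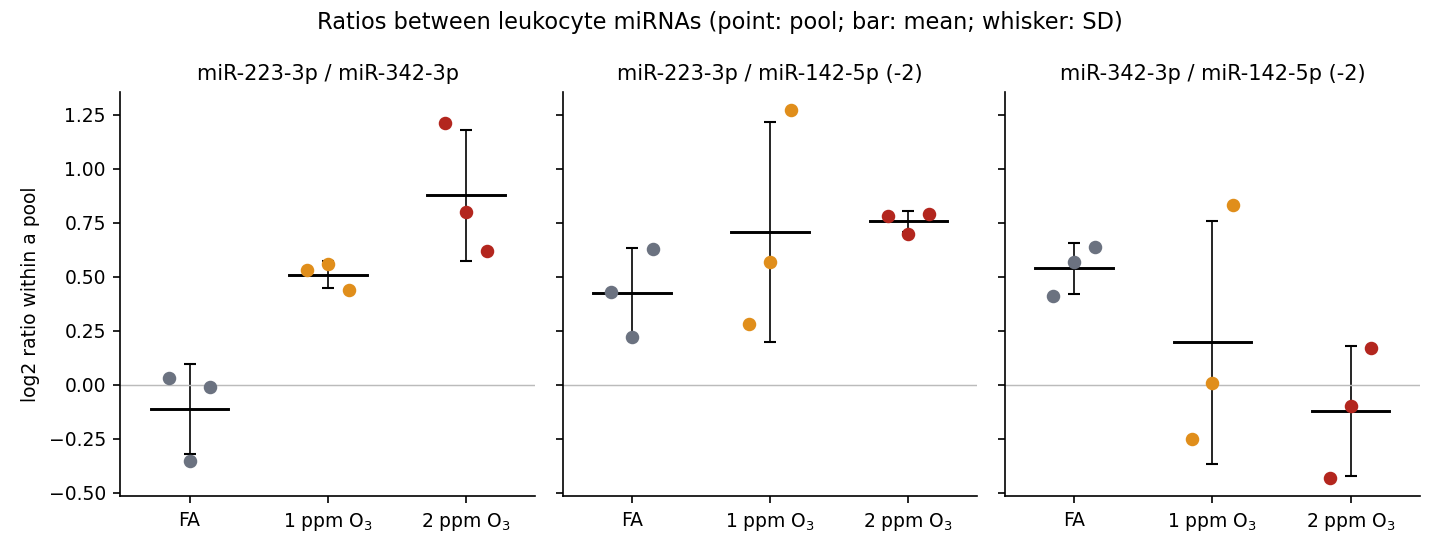
Log2 ratios within a pool (vertical axis) between miR-223-3p, miR-342-3p and miR-142-5p (-2), 1 panel for each pair, in the 9 pools by exposure (points: pools, bars: mean, whiskers: SD of 3 pools). The mean for miR-223-3p to miR-342-3p goes from -0.11 in FA to 0.51 after 1 ppm and 0.88 after 2 ppm O3, with no overlap, while the other ratios overlap between FA and 1 ppm and between 1 and 2 ppm O3.

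The 5p arm of mir-142 was read mostly from a start that is not the annotated one. miR-142-5p (-2) held 65.9% to 100% of the reads of the arm over the 9 pools, whereas the annotated start held 0% to 24.2%. In all, 90.4% of the arm lay in isomiRs, which ranked 5 among the 253 arms above 50 RPMMM. Their median was 4.93%, and 9.88% of arms had over 50% in isomiRs. The other tested arms of these hairpins were closer to their annotation, with 9.96% in isomiRs for the 3p arm of mir-223 and 17.8% for that of mir-342. Beside the sequences above, the reads of the arm were thus mostly assigned to the seed CCAUAAA and not to AUAAAGU.

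The level of miR-142-5p (-2) was 683, 491 and 429 RPMMM in FA, 805, 564 and 558 RPMMM after 1 ppm and 399, 394 and 398 RPMMM after 2 ppm O3. The 2 ppm pools lay close together and below all other pools. The log2 fold change from FA was 0.27 after 1 ppm (adjusted p = 0.583 from limma) and -0.40 ± 0.233 (SE, n = 3 pools) after 2 ppm O3 (adjusted p = 0.161), and neither passed. Between 2 and 1 ppm O3 it was -0.67 (adjusted p = 0.0423 from limma), under 2-fold. With median of ratios scaling the value after 2 ppm O3 compared with FA was 0.30, so the direction turned. The annotated miR-142-5p was 69.0, 27.8 and 146 RPMMM in FA, 71.9, 28.8 and 0 RPMMM after 1 ppm and 62.5, 62.2 and 103 RPMMM after 2 ppm O3, with groups that overlapped. It was not called in any of the 3 comparisons.

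**Figure D4:**
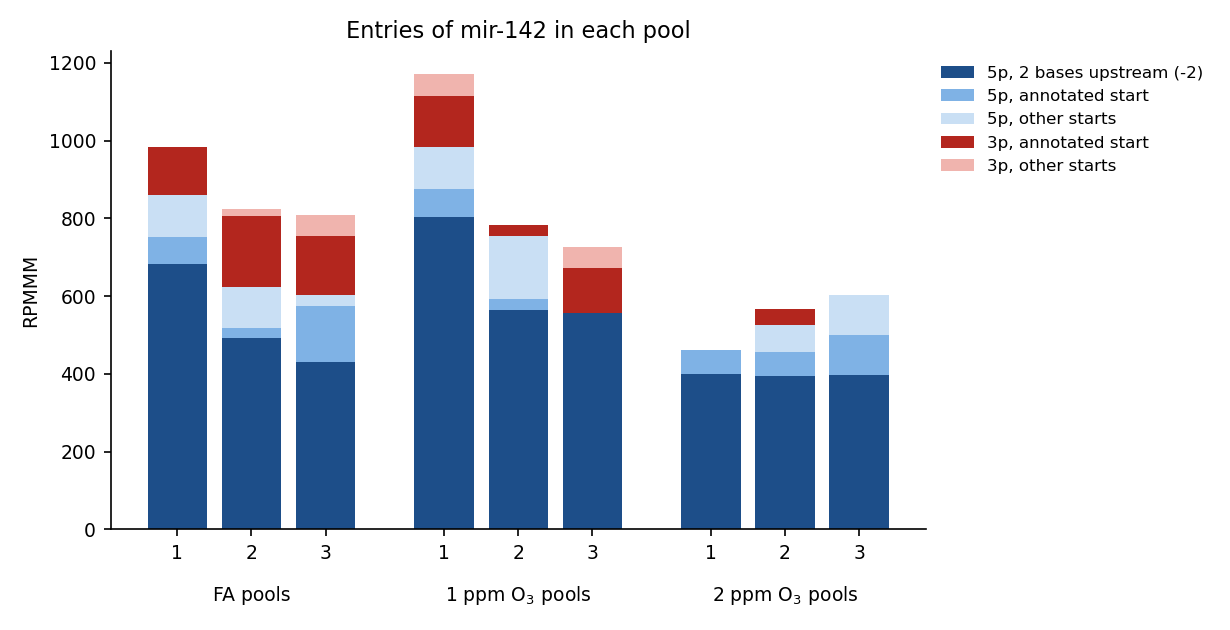
Level in RPMMM (vertical axis) of the entries of mir-142 in each of the 9 pools, stacked by arm and start. miR-142-5p (-2) is the largest entry in every pool, and miR-142-3p is listed at 0 in 2 of the 3 pools of 2 ppm O3.

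miR-142-3p, the strand from the other side of the hairpin and a regulator of blood cell development, fell after 2 ppm O3. Its level was 123, 182 and 151 RPMMM in FA, 131, 28.8 and 114 RPMMM after 1 ppm and 0, 41.5 and 0 RPMMM after 2 ppm O3. The 2 ppm pools lay below every FA pool and overlapped those of 1 ppm. The fitted log2 fold change from FA was -5.44 ± 1.44 (SE, n = 3 pools) after 2 ppm (adjusted p = 0.0104 from limma) and -0.98 after 1 ppm O3 (adjusted p = 0.776). The size of the first depends on the pseudocount, since 2 of the 3 pools were listed at 0. It was -4.54 without 2 ppm pool 1 or 3 and -7.24 without 2 ppm pool 2, and the value after 1 ppm O3 was -0.30 without 1 ppm pool 2. With each 0 set to 10 reads, the number assumed for the lowest value above 0, the mean was 4.14-fold lower after 2 ppm than in FA. It was 1.67-fold lower after 1 ppm O3, both on the deposited scale.

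The call of miR-142-3p after 2 ppm O3 held in 19 of 19 settings, the 3 other scalings included. In those 3 scalings the log2 fold change was -5.34, -5.15 and -5.02, and each still rests on the pseudocount of 1 for pools at 0. No floor was combined with another scaling. On the deposited scale, values below 40 RPMMM were also set to 40, which lies above the level of 10 reads in every pool. The change was then -1.89 on the log2 scale (adjusted p = 0.00376 from limma), where the median of all tested entries was -0.73. The highest count behind any of its values was 141 reads. The comparison of 2 with 1 ppm O3 gave -4.46 (adjusted p = 0.0347 from limma), a call made in 9 of 19 settings. It was not made without FA pool 2 or 3, without 1 ppm pool 1 or 3 or without 2 ppm pool 1 or 3, with an adjusted p between 0.0520 and 0.1055 from limma.

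The arms of mir-142 were thus unequally represented. With a 3p arm at 0 set to 10 reads, the 5p arm held 87.5%, 75.5% and 74.6% of the hairpin in FA, 83.8%, 96.3% and 76.8% after 1 ppm and 93.3%, 92.7% and 94.4% after 2 ppm O3. The 2 ppm pools lay above all FA pools and within the range of 1 ppm. No test was made of the ratio between arms, since 0 of the 4 hairpins had both arms above 0 in all 9 pools.

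The ratios of the leading 3p entries of mir-223 and mir-342 to miR-142-3p rose with the concentration in 25 of 27 pairs of pools each (exact permutation test over pools, two-sided, p = 0.00952, adjusted p = 0.00952 over the 2 ratios). Both rest on miR-142-3p at 0 after 2 ppm O3. With the sums of all entries of each hairpin, 21 of 27 pairs rose for mir-223 to mir-142 and 6 of 27 for mir-342 to mir-142 (exact permutation test, p = 0.123 each). The second ratio thus turned in direction. Ratios to mir-150 could not be formed, since its only entry was at 0 in 8 pools.

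The order of the 3 leading entries changed between exposures. In FA the means were 768 ± 122 RPMMM (SD, n = 3 pools) for miR-342-3p, 721 ± 181 RPMMM for miR-223-3p and 535 ± 132 RPMMM for miR-142-5p (-2), and neighbours in this order overlapped. After 2 ppm O3 they were 671 ± 27.6 RPMMM for miR-223-3p, 397 ± 2.59 RPMMM for miR-142-5p (-2) and 370 ± 76.0 RPMMM for miR-342-3p. The pools of miR-223-3p then lay above those of the other two, which overlapped each other.

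Trends over the 3 exposures were assessed with an exact test that counts, among the 27 pairs of pools of unlike exposure, those with the higher level at the higher concentration. Of the 7 entries 1 passed, compared with 28.6% of all tested entries and 16.3% falling. This was miR-142-3p, with 2 of 27 pairs rising (exact permutation test, two-sided, p = 0.00833, adjusted p = 0.0338). It did not pass without FA pool 2 or 3, without 1 ppm pool 3 or without 2 ppm pool 1 or 3 (adjusted p from 0.0739 to 0.0963, exact permutation test). For miR-342-3p 4 of 27 pairs rose (p = 0.0417, adjusted p = 0.0965 in the exact test). Of the settings run, it passed only without 1 ppm pool 3 (adjusted p = 0.0360, exact permutation test), and had 5 of 27 pairs rising with the median of ratios (adjusted p = 0.176) and 11 of 27 without mir-2137 and the doubtful hairpins (adjusted p = 0.802, exact permutation test). For miR-223-3p 13 of 27 pairs rose with the deposited scaling and 24 of 27 with the median of ratios (exact permutation p = 1 and p = 0.0214, the second with an adjusted p of 0.0755). The share of isomiRs showed no trend that passed in the 3 arms tested, which were the 5p arm of mir-142 and the 3p arms of mir-223 and mir-342 (exact permutation test, p = 0.668, 0.519 and 0.519, adjusted p = 0.668 each).

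**Figure D5:**
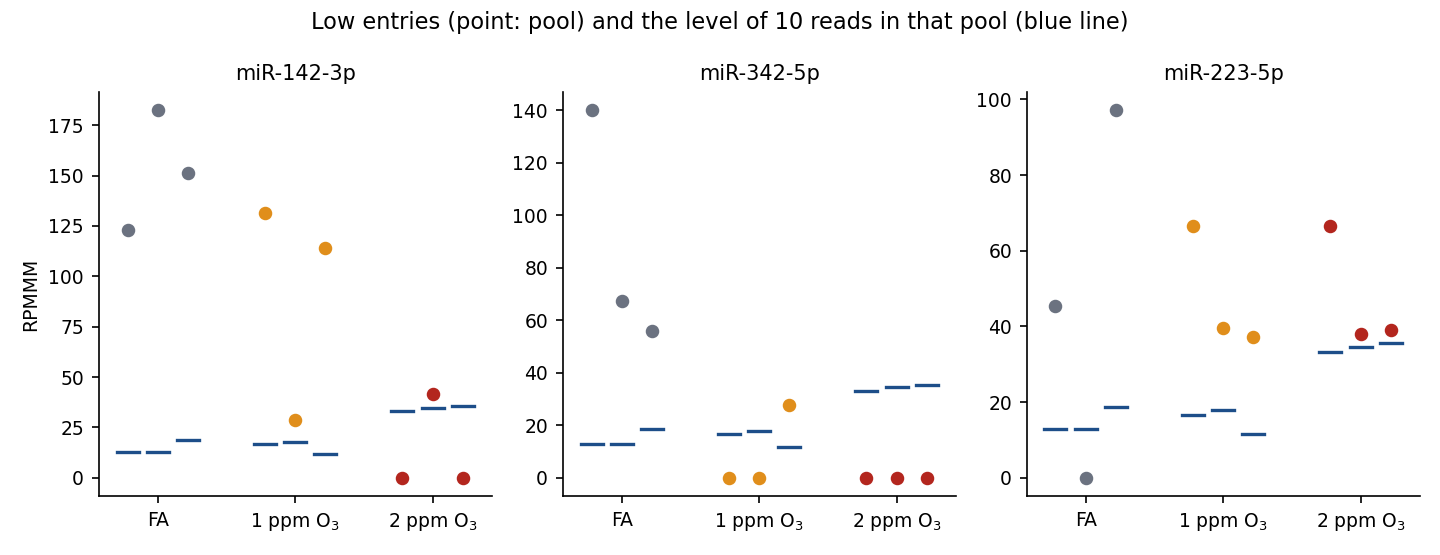
Level in RPMMM (vertical axis) of miR-142-3p, miR-342-5p and miR-223-5p in the 9 pools by exposure (points), with the level of 10 reads in that pool as a blue line. The blue lines lie higher in the pools of 2 ppm O3, and miR-342-5p is above 0 in all 3 FA pools and listed at 0 in all 3 pools of 2 ppm O3.

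Of the 28 entries, 21 lay below the filter and were not tested. miR-342-5p, the less abundant strand of mir-342, was 140, 67.3 and 56.0 RPMMM in FA, 0, 0 and 27.9 RPMMM after 1 ppm and 0 in all pools of 2 ppm O3. All FA pools lay above all O3 pools. On the deposited scale, with each 0 set to 10 reads, the mean was at least 4.21-fold lower after 1 ppm O3 than in FA. After 2 ppm O3 it was at least 2.55-fold lower than in FA. These bounds were not computed on the other scales. The median of ratios divides the FA pools by 1.17 to 1.21 and the 2 ppm pools by 0.694 to 0.810, so the bound after 2 ppm O3 would be smaller there. The bound after 2 ppm O3 is lower than that after 1 ppm because 10 reads stand for more RPMMM in the shallower 2 ppm pools. When all 1308 entries were fitted, with no filter, its adjusted p from limma was 0.185 after 1 ppm and 0.0165 after 2 ppm O3. The fitted log2 fold change after 2 ppm O3 was -6.36, and it depends on the pseudocount, since all 3 pools were at 0. In that fit 250 of the 1308 entries were called after 2 ppm O3.

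miR-223-5p, the other strand of mir-223, was the most abundant entry below the filter, with a mean of 47.7 RPMMM against 55.6 RPMMM for the lowest tested entry. It was 45.4, 0 and 97.1 RPMMM in FA, 66.6, 39.6 and 37.2 RPMMM after 1 ppm and 66.5, 38.0 and 39.1 RPMMM after 2 ppm O3, with groups that overlapped. miR-223-3p (+1), which was tested, was 79.1, 0 and 57.9 RPMMM in FA, 84.9, 46.8 and 56.9 RPMMM after 1 ppm and 86.4, 0 and 88.8 RPMMM after 2 ppm O3, and was not called. miR-150-5p, the lymphocyte miRNA, was listed at 0 in 8 pools and at 24.4 RPMMM (21 reads) in 1 ppm pool 3. At this depth it was not detectable in the other pools, which does not show that it was absent.

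Other miRNAs of immune cells and inflammation were taken from a list of 14 hairpins, the mir-146, mir-155, mir-147, mir-511, mir-21, mir-132, mir-212 and mir-181 families, of which 20 entries were tested. After 1 ppm O3 0 of the 20 were called, compared with 13.2% of all tested entries. After 2 ppm O3 5 were called, all lower, compared with 43.6% of all tested entries in either direction and 29.3% lower. The medians were -0.07 and -0.72, against -0.08 and -0.83 for all tested entries. Calls of this list are given on the deposited scale only. The 5 called were miR-146b-5p, miR-155-5p, miR-181b-1-5p, miR-181b-2-5p and miR-181d-5p. Of these, miR-181b-1-5p and miR-181b-2-5p are the same miRNA from its genomic copies. Of the 20 entries 12 were mature, with genomic copies counted apart, and the others were isomiRs. miR-155-5p, which activated macrophages and lymphocytes induce, had means of 472, 307 and 195 RPMMM in FA, 1 ppm and 2 ppm O3, a log2 fold change of -1.28 after 2 ppm (adjusted p = 0.00193 from limma). For miR-146a-5p, a brake on inflammatory signalling, the value after 2 ppm O3 was 0.05 on the log2 scale, and for miR-21-5p it was -0.74 (under 2-fold). miR-132-3p lay higher after O3, with means of 37.7, 111 and 76.3 RPMMM in FA, 1 ppm and 2 ppm O3. Its log2 fold change was 2.85 after 1 ppm (adjusted p = 0.243 from limma) and 2.32 after 2 ppm O3 (adjusted p = 0.188), and neither was called.

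Sets of miRNAs of other cell types also differed between exposures on the deposited scale, and their part in the results above was not tested. The summed level of 5 epithelial hairpins (the mir-200 family) was 64850 to 69400 RPMMM in FA, 51320 to 56130 RPMMM after 1 ppm and 26270 to 30240 RPMMM after 2 ppm O3. That of 3 erythroid hairpins was 884 to 1822 RPMMM in FA, 150 to 343 RPMMM after 1 ppm and 158 to 948 RPMMM after 2 ppm O3. The endothelial hairpin mir-126 was at 112 to 314 RPMMM in FA, 445 to 939 RPMMM after 1 ppm and 764 to 912 RPMMM after 2 ppm O3. The ciliated set was at 11050 to 16600 RPMMM in FA, 5984 to 10680 RPMMM after 1 ppm and 11860 to 13780 RPMMM after 2 ppm O3, so that FA and 2 ppm overlapped.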

How the data were processed

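BALF EV RNA from the 9 pools was sequenced as small RNA. The authors used miRquant 2.0 with mm9 to count miRNAs and isomiRs, and the values they deposited are RPM of the miRNA reads (RPMMM), 1 column per pool. Pools were grouped by the exposure in the labels. The estimated reads came from low values on steps of 1 read, with the lowest value of a pool assumed to be about 10 reads. Of the leukocyte values above 0, 92.9% were whole within 0.1 read, so no count test was run. A share of a low arm carries counting error that these values do not show. Replicate pools had a Pearson correlation of 0.800 to 0.904 across entries, and none was a duplicate.

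The 28 entries and the lists of other cell types were chosen with earlier results of these data known, so no pattern is independent of them. The limma fit (version 3.58.1, R 4.3.3) used log2(RPMMM + 1) of the 461 entries whose mean passed 50 RPMMM, and let the variance follow the mean level. The fit was tested on simulated data. Exact permutation tests were two-sided, with no p under 0.1 for 3 pools against 3 and none under 0.00119 for the trend. Sequences came from the RefSeq table of GRCm38.p6 and positions from the mm9 annotation. Named miRNAs were all entries of the 4 hairpins, mature entries of the 14 immune hairpins, and for each leading mature entry the 3 mature miRNAs with the highest correlation. Alternatives covered the pseudocount, a floor, the filter, 3 scalings, isomiRs, the model and each pool left out. Those that use miR-142-5p (-2) for mir-142, and the ratio of miR-223-3p to miR-342-3p, were added after seeing the data. The exact tests used numpy 2.4.6, tables pandas 2.3.3 in Python 3.11.15, and plots matplotlib 3.10.9.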

Additional observations from a re-analysis of the deposited data

How the results depend on the processing

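No paired analysis was possible because the labels give the pools no replicate numbers or pairs. The test of the ratio between arms could not be run, with or without isomiRs. The number of leukocyte entries called after 2 ppm compared with FA was 2, and 1 with the total without mir-2137 (miR-342-3p then at -0.75), without mir-2137 and the 4 doubtful hairpins, or with the median of ratios, and 1 to 2 with a pool left out (1 without FA pool 1 or 2 ppm pool 1). Between 2 and 1 ppm O3 it was 1, and 0 with values below 40 RPMMM set to 40, without the doubtful hairpins, with the median of ratios or with only these exposures in the model, and 0 to 2 with a pool left out (0 without FA pool 2 or 3, 1 ppm pool 3 or 2 ppm pool 1). The trend passed for 1 entry, and for 0 with the floor of 40 RPMMM, with no filter or without the doubtful hairpins, and for 0 to 1 with a pool left out (0 without FA pool 2 or 3 or 2 ppm pool 1 or 3). The cause of these changes was not tested. Pairs rising were 77.8% for mir-223 to mir-142 and 22.2% for mir-342 to mir-142, both with sums over each hairpin and with miR-142-5p (-2), in place of 92.6%.

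Directions turned as follows, with no call on either side. Without mir-2137 and the doubtful hairpins, the log2 fold change of miR-342-3p after 1 ppm was 0.04 (0.01 with the median of ratios). That of miR-142-5p (-2) after 2 ppm was 0.46 (0.30 with the median of ratios), and 0.08 compared with 1 ppm. That of miR-223-3p after 2 ppm was 0.79 (0.62 with the median of ratios, 0.23 without mir-2137 alone), and 0.13 compared with 1 ppm. That of miR-342-3p (+2) between 2 and 1 ppm was 0.35 (0.22 with the median of ratios). With the floor of 40 RPMMM, miR-223-3p (+1) between 2 and 1 ppm was 0.15. The percent of pairs rising was 77.8 and 70.4 for miR-142-5p (-2) and 88.9 and 88.9 for miR-223-3p, and 51.9 for the latter without mir-2137 alone. With a pool left out, log2 fold changes after 1 ppm ran from -0.15 to 3.01 for miR-223-3p (+1), -0.30 to 0.10 for miR-342-3p and -0.88 to 0.17 for miR-342-3p (+2). After 2 ppm they ran from -0.44 to 0.74 for miR-142-5p, -0.23 to 0.12 for miR-223-3p and -1.79 to 2.40 for miR-223-3p (+1). Between 2 and 1 ppm they ran from -2.73 to 0.52 for miR-223-3p (+1) and -1.01 to 0.03 for miR-342-3p (+2). The percent of pairs rising ran from 42.9 to 66.7 for miR-142-5p and 33.3 to 57.1 for miR-223-3p. Depth limits the entries near 10 reads most, above all in the 2 ppm pools.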

Other observations

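Of the tested mature entries of other hairpins, those with the highest Pearson correlation of log2(RPMMM + 1) with each leading mature entry over the 9 pools were as follows. The 9 pools share 3 exposures and their scaling to a common total, so these values are a description with no test. For miR-342-3p they were miR-30c-5p, from both of its genomic copies, and miR-151-5p, with r = 0.96 each. miR-151-5p had means of 3016, 2356 and 1225 RPMMM in FA, 1 ppm and 2 ppm O3, lower after 2 ppm O3 like miR-342-3p. For miR-142-3p they were miR-455-3p (r = 0.95) and miR-199a-5p from both of its copies (r = 0.92), with means after 2 ppm O3 of 17.3 and 17.9 RPMMM, below the level of 10 reads in those pools. For miR-223-3p they were miR-148b-3p (r = 0.84) and miR-16-5p from both of its copies (r = 0.77). miR-148b-3p had means of 263, 336 and 271 RPMMM, highest after 1 ppm O3 like miR-223-3p.

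The summed level of the 5 muscle hairpins in the table, of mir-1, mir-133 and mir-206, was 235 to 6029 RPMMM in FA, 146 to 217 RPMMM after 1 ppm and 0 to 179 RPMMM after 2 ppm O3, with a wide spread within FA. That of 6 mesenchymal hairpins was 6199 to 14690 RPMMM in FA, 7226 to 10720 RPMMM after 1 ppm and 6517 to 6625 RPMMM after 2 ppm O3. The pools of 2 ppm O3 lay below those of 1 ppm O3, and both overlapped FA.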
